A study of Mus musculus with 6 samples.

Results

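The genes that make and inactivate prostaglandins were read on arrays of mouse embryonic fibroblasts (MEF) without TIA1 or without TIAR, beside wild-type (WT) MEF. The 8 genes, Ptgs1, Ptgs2, Ptges, Ptges2, Ptges3, Ptgis, Ptgds and Hpgd, were chosen by name, and every non-control probe that the array design assigns to one of them was kept. This gave 14 probes on 23 spots, of 55681 probes for 34797 gene names on 59305 spots. Immortalized MEF of 3 groups were hybridized, with 2 arrays per group: WT MEF (strain given as W4), TIA1 KO MEF (strain given as BALB/c) and TIAR KO MEF (strain given as C57BL/6). All 6 arrays carried total RNA labelled with Cy3, lay on 1 slide and had 1 scan time. Genotype, strain and cell line change together between these groups and cannot be told apart. Both TIA1 KO arrays also lay in the other row of the slide, so slide row and TIA1 KO cannot be told apart either. How many lines stand behind each genotype, and which part of either locus was deleted, is not given in the sources used here.

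Prostaglandins are made from arachidonic acid, which phospholipases free from membranes. The cyclooxygenases, Ptgs1 (constitutive in many tissues) and Ptgs2 (induced by cytokines and growth factors), turn it into prostaglandin H, and terminal synthases then make a particular prostanoid from it: Ptges, Ptges2 and Ptges3 prostaglandin E, Ptgis prostacyclin and Ptgds prostaglandin D. Hpgd is the dehydrogenase that inactivates prostaglandins. TIA1 and TIAR are RNA-binding proteins, and TIA1 is known to bind the AU-rich tail of the Ptgs2 mRNA and to hold back its translation. The arrays measure RNA levels and carry no information on translation or protein.

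The promoter of Ptgs2 is shown because this gene moved in opposite directions in TIA1 KO and TIAR KO MEF, and that of Ptgs1, its constitutive relative, for comparison. Of the 8 genes, 7 had an entry in the RefSeq promoter table of GRCm38.p6, all but Ptgis. The lines below give the 250 bases before the annotated start of each gene and, for Ptgs2, the next 30 bases, on the plus strand (chr1:150099781-150100030, chr2:36230176-36230425 and chr1:150100031-150100060). Capitals mark matches to TTGCGCAA (a C/EBP-type site), TGACGT or its other strand ACGTCA (a CRE-type site), and CACGTG (an E-box), searched with TATAAA on both strands over 300 bases around the start.
Ptgs2 before the start: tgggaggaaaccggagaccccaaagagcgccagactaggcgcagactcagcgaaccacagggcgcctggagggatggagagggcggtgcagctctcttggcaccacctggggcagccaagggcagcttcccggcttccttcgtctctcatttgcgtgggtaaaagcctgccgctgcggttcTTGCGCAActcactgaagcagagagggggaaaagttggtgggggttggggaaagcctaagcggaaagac
Ptgs2 after the start: agagtcaccactACGTCACGTGgagtccgc
Ptgs1 before the start: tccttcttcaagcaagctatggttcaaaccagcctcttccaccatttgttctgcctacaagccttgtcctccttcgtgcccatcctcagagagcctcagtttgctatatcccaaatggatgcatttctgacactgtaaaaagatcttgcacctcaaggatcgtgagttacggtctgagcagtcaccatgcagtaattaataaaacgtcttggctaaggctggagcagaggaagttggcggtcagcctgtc
In the Ptgs2 window, TTGCGCAA lay 69 to 62 bases before the start, and ACGTCA and CACGTG overlapped by a pair of bases at bases 13 to 18 and 17 to 22 after it. None of the 4 motifs was found in the Ptgs1 window. Of 32851 promoters of the same length, 0.183% held TTGCGCAA, 7.51% TGACGT, 7.15% CACGTG and 13.6% TATAAA. Among the matched members, CACGTG was also found in Ptges2 and TATAAA in Hpgd.

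Values are the authors' normalized log2 intensities, and spots of 1 probe were averaged. A probe was called where its fold change was above 2 and its adjusted p under 0.05 (limma, Benjamini-Hochberg over all 55681 probes). A probe rated well above background by the scanner software on at least 50% of its spots counted as measured on that array. The TIA1 KO arrays were brighter, with median spot intensities of 458 and 218, than those of WT (152 and 140) and TIAR KO MEF (136 and 119). They nevertheless held the fewest probes well above background, 16021 and 19996, against 23569 to 26295 on each of the others. The SD between the 2 arrays of a group was 0.267 in WT, 0.300 in TIAR KO and 0.563 in TIA1 KO MEF, on the log2 scale. TIA1 KO values are therefore the least precise, and precision throughout is limited by how few arrays there are.

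The knocked-out genes were read first. Tia1, by its brightest probe, gave log2 values of 10.57 and 8.71 in WT, 7.52 and 8.38 in TIA1 KO and 9.75 and 9.77 in TIAR KO MEF. It was lower in TIA1 KO MEF on both arrays, but its change of -1.69 ± 0.75 (SE) was not called (adjusted p = 0.247), nor was the -1.87 of the second probe (adjusted p = 0.149). The change by the brightest probe was -0.76 without WT replicate 1 and -2.62 without WT replicate 2. It was called in 1 of 14 alternatives, the common array median (adjusted p = 0.000162), and that of the second probe in 2 of 13, the same one and without TIA1 KO replicate 2 (-2.56). The third Tia1 probe, against another transcript, was not called either, at 1.10, but was called higher in 1 of 12 alternatives. Tial1, the gene of TIAR, gave 13.29 in WT replicate 2 and 9.80 and 11.78 in TIAR KO MEF by its brightest probe, whose spot on WT replicate 1 was an outlier and was dropped from the fit (change -2.50, adjusted p = 0.188). Without 1 array in turn, the change by this probe ranged from -3.49 to -1.51. The second Tial1 probe gave 11.84 and 11.19 in WT, 10.23 and 9.86 in TIAR KO and 12.06 and 11.65 in TIA1 KO MEF, and fell by 1.47 ± 0.27 (SE) in TIAR KO MEF (adjusted p = 0.0316). The fall of Tial1 was thus called by 1 of its 2 probes, and by that one in 6 of 13 alternatives, while no Tia1 probe was called and the third lay higher on both TIA1 KO arrays, and whether any of these probes lies inside the deleted part is not given in the sources used here. Gapdh, the reference gene, changed by -0.05 and 0.08 by its brightest probe.

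Ptgs2, the inducible cyclooxygenase, was highest in TIA1 KO, intermediate in WT and lowest in TIAR KO MEF. Its probe (chr1:151954744-151954803, mm9, plus strand) is printed on 10 spots of each array. The log2 values were 11.02 and 11.42 in WT, 13.52 and 13.89 in TIA1 KO and 9.36 and 9.39 in TIAR KO MEF. No array of one group overlapped with those of another, and all 6 arrays were well above background. Against WT MEF, Ptgs2 rose by 2.49 ± 0.24 (SE) in TIA1 KO MEF, or 5.60-fold (adjusted p = 0.0372), and fell by 1.85 ± 0.19 in TIAR KO MEF, or 3.59-fold (adjusted p = 0.00459). TIAR KO MEF had 20.1-fold less Ptgs2 RNA than TIA1 KO MEF, a log2 difference of -4.33 ± 0.20 (adjusted p = 0.0122). In such bulk RNA, fewer cells with the transcript and less transcript per cell cannot be told apart.

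The direction was the same under all 15 alternatives in each comparison, and the call held in 8 of them for TIA1 KO against WT, in 11 for TIAR KO against WT and in 12 for TIAR KO against TIA1 KO MEF. Scaled to a common array median instead, Ptgs2 in TIA1 KO MEF lay 1.03 above WT (adjusted p = 0.0973), where the median of all probes lay at -0.67. From the scanner software's processed signals the value was 2.42 (adjusted p = 0.0697), where the median of all probes lay at 1.98. The TIA1 KO call was lost without WT replicate 1 (2.28, adjusted p = 0.415), without WT replicate 2 (2.69, adjusted p = 0.417) and without TIA1 KO replicate 1 (2.67, adjusted p = 0.0630). The TIAR KO call was lost without WT replicate 2 (-1.64, adjusted p = 0.0613), without TIAR KO replicate 1 (-1.83, adjusted p = 0.111) and without TIAR KO replicate 2 (-1.86, adjusted p = 0.119). Without either TIAR KO array, the difference between the knockouts stayed at -4.32 and -4.34, with adjusted p of 0.390 and 0.356.

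**Figure D1:**
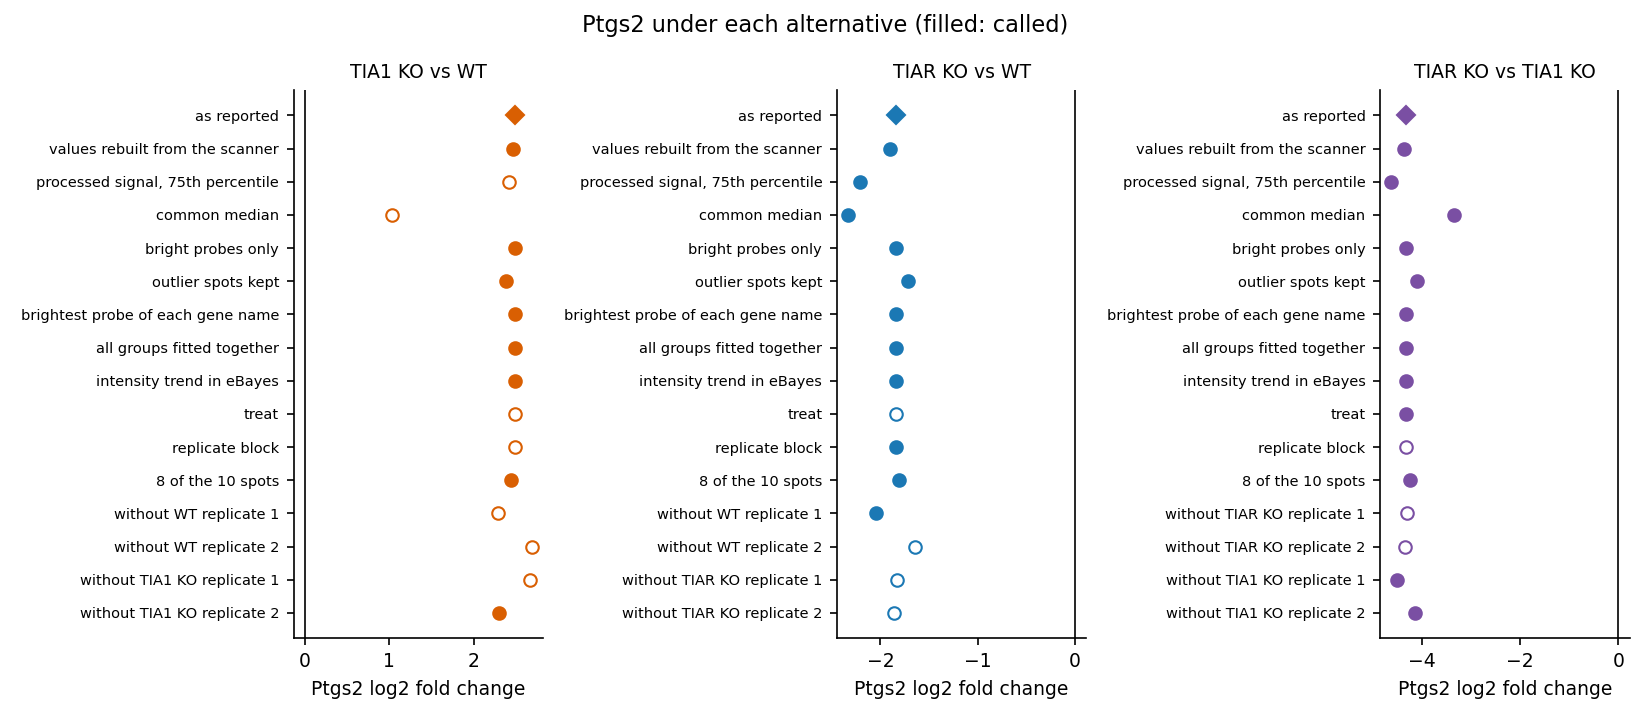
Log2 fold change of Ptgs2 (x axis) as reported (diamond) and under each alternative (circles, y axis) in the 3 comparisons, with filled symbols where the probe was called. All points of a panel lie on one side of 0, and the point closest to 0 is the common-median value of 1.03 in TIA1 KO against WT.

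The single spots told the same order. Over the spots used, Ptgs2 ranged from 9.91 to 11.67 in WT, from 12.35 to 14.06 in TIA1 KO and from 8.64 to 9.78 in TIAR KO MEF. These ranges do not overlap, although the 10 spots of an array share 1 labelled sample and are no replicates of a condition. The scanner software marked 2 spots of WT replicate 2, 1 spot of TIA1 KO replicate 1 and 2 spots of TIA1 KO replicate 2 as outliers, and these were left out.

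**Figure D2:**
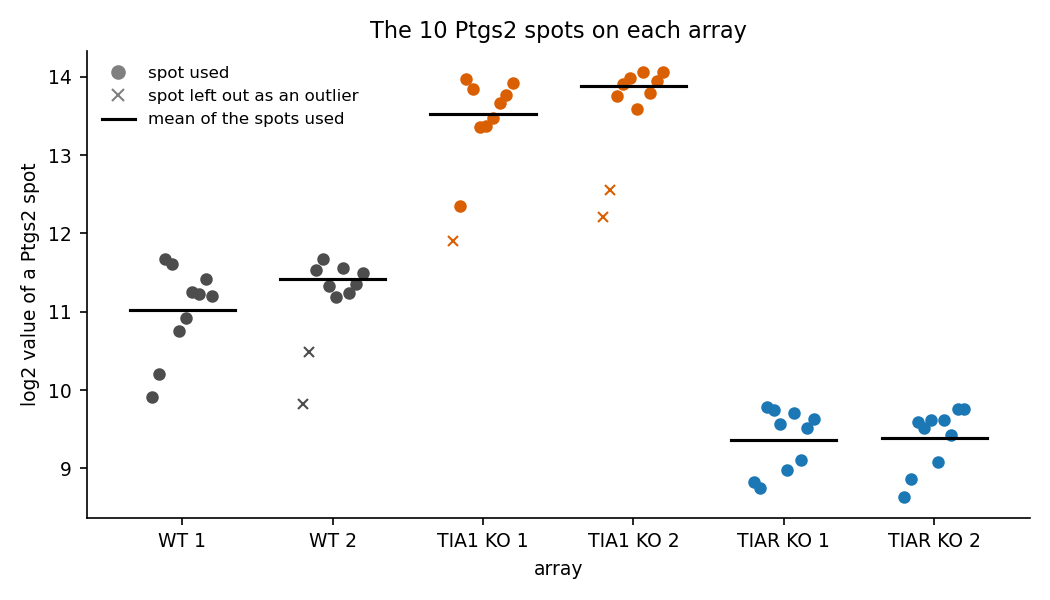
Log2 value of each of the 10 Ptgs2 spots (y axis) on each of the 6 arrays (x axis), with the mean of the spots used as a line and the 5 outlier spots as crosses. The spots used lie between 12.35 and 14.06 in TIA1 KO, above all WT spots, and between 8.64 and 9.78 in TIAR KO MEF, below them.

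Ptgs1, the constitutive cyclooxygenase, moved the other way in TIAR KO MEF. Its single probe (chr2:36107644-36107703, plus strand) gave 11.27 and 10.31 in WT, 10.00 and 10.21 in TIA1 KO and 13.02 and 13.44 in TIAR KO MEF. The TIAR KO arrays lay above all others, and the TIA1 KO arrays just below both WT arrays, whose own SD was 0.679. Ptgs1 rose by 2.44 ± 0.35 (SE), or 5.43-fold, in TIAR KO against WT MEF (adjusted p = 0.0135), and was 8.72-fold higher in TIAR KO than in TIA1 KO MEF (3.13 ± 0.23, adjusted p = 0.0208). Its change of -0.69 ± 0.38 in TIA1 KO MEF was not called (adjusted p = 0.312), but under a common array median it reached -1.84 and was called (adjusted p = 0.00134). The rise in TIAR KO MEF was called in 9 of 14 alternatives. It was not called without WT replicate 2 (1.96), TIAR KO replicate 1 (2.65) or TIAR KO replicate 2 (2.23). Nor was it called with treat (adjusted p = 0.150) or, by limma, with a replicate block (adjusted p = 0.0553).

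Ptgis, the prostacyclin synthase, had the largest changes of the 8 genes in TIAR KO against WT MEF and between the knockouts. Its brighter probe (chr2:167028696-167028755, minus strand) gave 9.94 and 10.65 in WT, 7.39 and 7.41 in TIA1 KO and 14.58 and 14.82 in TIAR KO MEF. The TIA1 KO arrays were not well above background and the TIAR KO arrays were far above WT. Ptgis rose by 4.41 ± 0.27 (SE), or 21.2-fold, in TIAR KO against WT MEF (adjusted p = 0.000738). It fell in TIA1 KO MEF by 2.90 ± 0.29 (adjusted p = 0.0393), which stands for at least 6.17-fold because the lower group is near background. Here and for other probes near background, each array of the lower group was given the lowest value it rated well above background, unless the probe itself lay higher there. Such a limit holds for the reported values only and does not cover their spread or the alternatives. TIAR KO MEF had at least 131-fold more Ptgis RNA than TIA1 KO MEF (7.30 ± 0.18, adjusted p = 0.0101).

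The second Ptgis probe (chr2:167017317-167017376, minus strand), designed on another transcript, gave 7.69 and 8.01 in WT, 7.59 and 7.07 in TIA1 KO and 8.07 and 8.08 in TIAR KO MEF. Its changes of -0.52, 0.23 and 0.75 had the signs of the brighter probe and none was called. The brighter probe's rise in TIAR KO MEF was called in 12 of 14 alternatives, and not without TIAR KO replicate 1 (4.53, adjusted p = 0.0658) or TIAR KO replicate 2 (4.29, adjusted p = 0.0757). Its fall in TIA1 KO MEF was called in 7 of 14, and not, among others, with the values rebuilt from the scanner intensities (-2.12, adjusted p = 0.0518).

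Ptgds, the lipocalin-type prostaglandin D synthase, was lowest in TIA1 KO MEF. Its probe (chr2:25322232-25322291, minus strand) gave 10.57 and 10.14 in WT, 6.92 and 7.64 in TIA1 KO and 9.95 and 9.76 in TIAR KO MEF, and the TIA1 KO arrays were not well above background. Ptgds fell in TIA1 KO MEF by 3.08 ± 0.33 (SE), at least 5.94-fold (adjusted p = 0.0450). It was at least 4.20-fold higher in TIAR KO than in TIA1 KO MEF (2.58 ± 0.31, adjusted p = 0.0495), while its change of -0.50 ± 0.21 against WT in TIAR KO MEF was not called (adjusted p = 0.268). The fall in TIA1 KO MEF was called in 8 of 14 alternatives. It was not called without WT replicate 1 (-2.86), WT replicate 2 (-3.29) or TIA1 KO replicate 1 (-2.72). Nor was it called with treat (adjusted p = 0.155) or, by limma, with the processed signals (-3.34, adjusted p = 0.0587) or a replicate block (adjusted p = 0.180). The difference between the knockouts was 2.58 with an adjusted p of 0.0506 (limma) where outlier spots were kept.

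Ptges, the inducible prostaglandin E synthase that often works together with Ptgs2, gave a different answer by each of its probes. The brighter one (chr2:30744995-30745054, minus strand) lay at 14.71 and 14.94 in WT, 14.84 and 14.79 in TIA1 KO and 14.91 and 14.62 in TIAR KO MEF. These arrays overlapped in every comparison, and its changes of -0.01 ± 0.17 (SE), -0.06 ± 0.19 and -0.05 ± 0.19 were not called. The probe 3219 bases further upstream on the gene's strand (chr2:30748214-30748273) gave 10.63 and 11.17 in WT, 7.11 and 6.80 in TIA1 KO and 9.71 and 9.83 in TIAR KO MEF. By that probe Ptges fell by 3.95 ± 0.27 in TIA1 KO MEF, at least 11.6-fold (adjusted p = 0.0200), and by 1.13 ± 0.22 in TIAR KO MEF, or 2.19-fold (adjusted p = 0.0407). TIAR KO MEF lay at least 5.30-fold above TIA1 KO MEF (2.82 ± 0.19, adjusted p = 0.0191). Both probes carry the same RefSeq accession and are assigned to the same gene, and which RNA each of them detects was not tested. The upstream probe's calls held in 8, 5 and 8 of 13 alternatives, with the same direction in all 13. Of the 8 genes, a count by the brightest probe does not include this change.

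**Figure D3:**
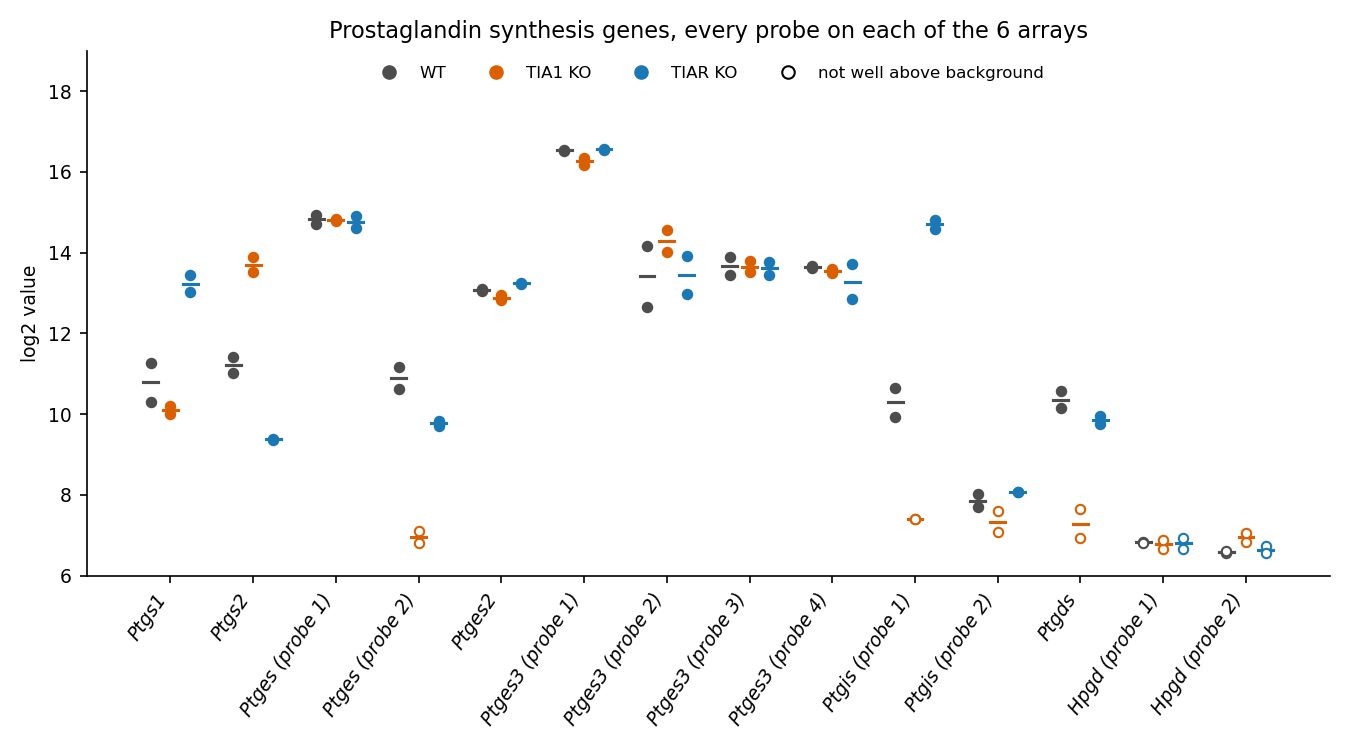
Log2 value (y axis) of each of the 14 probes (x axis, the probes of 1 gene numbered from the brightest) on the 2 arrays of each group, with the group mean as a line and open circles where the probe was not well above background. Levels of different probes are not on a common scale. The 3 groups of Ptgs2 and of the brighter Ptgis probe lie apart from each other, and the upstream Ptges probe (probe 2) and Ptgds are near background only in TIA1 KO MEF.

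The other prostaglandin E synthases were not called in any comparison. Ptges2, a membrane-associated synthase, gave 13.05 and 13.09 in WT, 12.83 and 12.94 in TIA1 KO and 13.23 and 13.25 in TIAR KO MEF, with changes of -0.19 ± 0.15 (SE), 0.17 ± 0.15 and 0.36 ± 0.16. Ptges3, the cytosolic synthase that is also a co-chaperone of Hsp90, gave 16.52 and 16.54 in WT, 16.35 and 16.18 in TIA1 KO and 16.54 and 16.57 in TIAR KO MEF by its brightest probe. The changes of all 4 Ptges3 probes lay between -0.84 and 0.87, with both limits from 1 probe. Without 1 array in turn, that probe ranged from 0.115 to 1.625 in TIA1 KO against WT MEF and from -1.305 to -0.375 between the knockouts. Under a common array median, where the median change of all probes lay at -0.67, a fall of both genes and of the brighter Ptges probe in TIA1 KO MEF was called, at -1.76 for Ptges2, -1.85 for Ptges3 and -1.59 for Ptges. Ptges2 (1.48, adjusted p = 0.0212) and Ptges3 (1.43, adjusted p = 0.0268) were then also called higher in TIAR KO than in TIA1 KO MEF. Hpgd, the enzyme of prostaglandin breakdown, was not well above background on any array, with both probes between 6.55 and 7.06.

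Counted by the brightest probe, 3 of the 8 genes were called in TIA1 KO against WT MEF, 1 higher (Ptgs2) and 2 lower (Ptgis and Ptgds). Of all 55681 probes, 1309 (2.35%) were called in this comparison, 1.56% higher and 0.787% lower, and 5.01% of the 23442 bright probes, meaning those that both arrays of one group or the other rated well above background. Likewise 3 were called in TIAR KO against WT MEF, 2 higher (Ptgs1 and Ptgis) and 1 lower (Ptgs2). There, 5.7% of all probes were called, 3.34% higher and 2.36% lower, and 12.5% of the bright ones. Between the knockouts 4 were called, 3 higher in TIAR KO MEF (Ptgs1, Ptgis and Ptgds) and 1 lower (Ptgs2), against 2.3% of all probes, 1.1% higher and 1.2% lower, and 4.9% of the bright ones. The median change of the 8 genes was -0.22, 0.0025 and 0.32 in these comparisons, and that of all probes -0.12, -0.02 and 0.09. The comparisons with WT share the WT arrays. The split of all calls rests on the scaling: 66.5% of those in TIA1 KO against WT MEF were higher, and 11.9% with a common median. For TIAR KO against WT MEF the share was 58.6%, and 34.4% with a common median. Between the knockouts, 47.7% were higher in TIAR KO MEF, 87.2% with a common median and 8.28% with the processed signals.

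**Figure D4:**
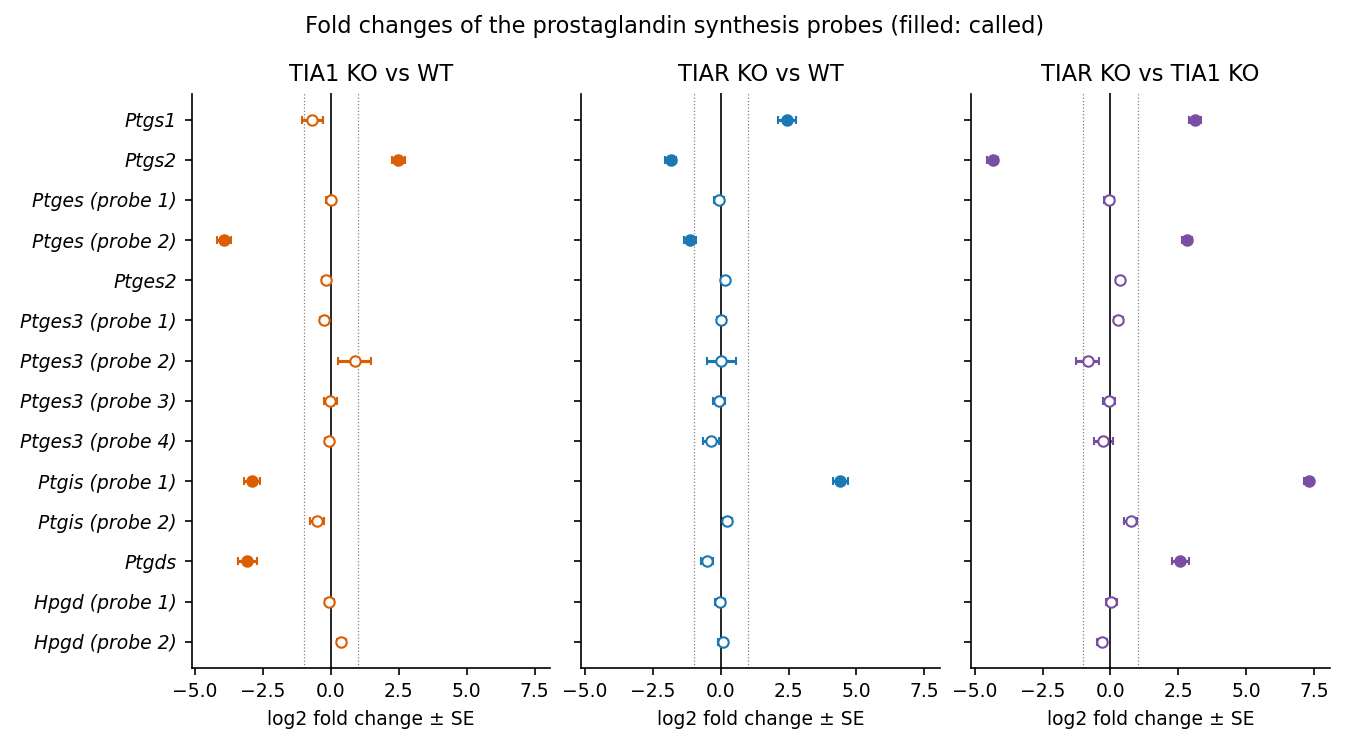
Log2 fold change ± SE (x axis) of the 14 probes (y axis, numbered as from the brightest) in TIA1 KO against WT, TIAR KO against WT and TIAR KO against TIA1 KO MEF, with filled circles where a probe was called and dotted lines at a fold of 2. Ptgs2 lies at 2.49, -1.85 and -4.33 and the brighter Ptgis probe at -2.90, 4.41 and 7.30.

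Calls of single genes depended on single arrays. Without either WT array, limma called no probe at all in TIA1 KO against WT MEF (6466 and 6629 at an unadjusted p under 0.05), and without TIA1 KO replicate 1 or 2 it called 556 and 11225. For TIAR KO against WT MEF it called none without TIAR KO replicate 1 (9653 unadjusted), 341 without TIAR KO replicate 2, and 871 and 920 without WT replicate 1 and 2. Between the knockouts it called none without TIAR KO replicate 1 or 2 (6204 and 6294 unadjusted). The called members kept their direction in all of these fits: Ptgis lay between -3.25 and -2.54, Ptgds between -3.44 and -2.72 and the upstream Ptges probe between -4.22 and -3.68 in TIA1 KO against WT MEF.

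The rest of the pathway was read from 82 genes in 7 lists, of which 61 were well above background on at least 1 array. In TIA1 KO against WT MEF, 5 of them were called (6.1%; 4 higher, 1 lower), in TIAR KO against WT MEF 13 (15.9%; 6 higher, 7 lower) and in TIAR KO against TIA1 KO MEF 9 (11%; 3 higher, 6 lower). Of all probes, 2.35%, 5.7% and 2.3% were called in these comparisons, and of the bright ones 5.01%, 12.5% and 4.9%. The counts moved with the scaling: in TIA1 KO against WT MEF 32 genes were called with a common median and 0 with the processed signals. The calls among all 55681 probes moved too, to 15801 with a common median (11.9% of them higher) and 0 with the processed signals. As reported, the median changes of the 82 genes were -0.12, -0.005 and 0.065, beside -0.12, -0.02 and 0.09 for all probes. The called genes named below from these lists, other than Il1rap, for which no alternative was run, kept their direction under all alternatives, while with a common median Slco2a1 in TIA1 KO MEF was 0.36 (adjusted p = 0.555).

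Of the 5 genes of prostaglandin transport and breakdown, 3 rose in TIA1 KO MEF, where the list's median change was 1.91 and 1.56% of all probes were called higher. None of these 3 calls held with the processed signals, at 3.85 for Cbr3, 4.02 for Ptgr1 and 1.70 for Slco2a1. The median of all probes lay at 1.98 with those signals, above the value of Slco2a1. Cbr3, a carbonyl reductase, gave 10.11 and 10.34 in WT, 13.79 and 13.93 in TIA1 KO and 11.91 and 11.97 in TIAR KO MEF. Ptgr1, a reductase that acts on prostaglandin breakdown products, gave 9.11 and 9.20 in WT, 12.62 and 12.85 in TIA1 KO and 10.12 and 10.53 in TIAR KO MEF. Both genes were highest in TIA1 KO and lowest in WT MEF, with no overlap. Cbr3 rose by 3.64 ± 0.17 (SE), or 12.4-fold, in TIA1 KO MEF (adjusted p = 0.0119) and by 1.72 ± 0.17 in TIAR KO MEF (adjusted p = 0.00361). Ptgr1 rose by 3.58 ± 0.17, or 12.0-fold, in TIA1 KO MEF (adjusted p = 0.0117) and by 1.17 ± 0.20 in TIAR KO MEF (adjusted p = 0.0238). Slco2a1, which carries prostaglandins into cells, gave 12.60 and 12.76 in WT, 14.52 and 14.65 in TIA1 KO and 12.75 and 13.01 in TIAR KO MEF. It rose by 1.91 ± 0.16 in TIA1 KO MEF (adjusted p = 0.0305), and its 0.20 in TIAR KO MEF was not called. All 3 were lower in TIAR KO than in TIA1 KO MEF, by 1.92, 2.41 and 1.71 on the log2 scale (adjusted p = 0.0273, 0.0337 and 0.0429). Between the knockouts, 1.2% of all probes were called lower. The other 2 genes of the list, Abcc4 and Ptgr2, were not called in any comparison.

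Genes known to induce Ptgs2 or to carry that signal held 7 called members of 17 in TIAR KO MEF, 3 higher and 4 lower, and 1 of 17 in TIA1 KO MEF, and the difference between these counts was not tested. Of all probes, 5.7% were called in TIAR KO and 2.35% in TIA1 KO MEF, and of the bright probes 12.5% and 5.01%. In TIA1 KO MEF, Areg, a ligand of the EGF receptor, rose by 2.39 ± 0.15 (SE; adjusted p = 0.0187), from 7.98 and 8.11 in WT to 10.39 and 10.48, while TIAR KO MEF gave 6.87 and 7.93. In TIAR KO MEF, the immediate early factor Egr1 fell by 3.54 ± 0.17 (adjusted p = 0.000335), from 12.43 and 12.33 to 8.75 and 8.94. The EGF receptor ligand Ereg fell there by 2.52 ± 0.25 (adjusted p = 0.00369) and the AP-1 subunit Jun by 2.07 ± 0.39 (adjusted p = 0.0340). Jun gave 14.25 and 14.16 in WT and, less alike, 12.74 and 11.54 in TIAR KO MEF. Its fall was 2.67 without TIAR KO replicate 1 and 1.47 without TIAR KO replicate 2, and was called in 6 of 14 alternatives. In the same cells Il1r1, the signalling receptor of interleukin 1, rose by 2.02 ± 0.24 (adjusted p = 0.00742), Il6 by 1.60 ± 0.18 (adjusted p = 0.00540) and the C/EBP family factor Cebpd by 1.54 ± 0.27 (adjusted p = 0.0264). Il1rap, the co-receptor of Il1r1, fell by 1.32 ± 0.16 in TIAR KO MEF (adjusted p = 0.00770), opposite to Il1r1. Egr1, Ereg, Jun and Il1rap thus fell there like Ptgs2, while Il1r1, Il6 and Cebpd rose. Il1a, Il1b and Tnf, the cytokines themselves, were not well above background on any array. Between the knockouts, 4 of the 17 were called, beside 2.3% of all probes and 4.9% of the bright ones. Il6 (2.31, at least 3.40-fold because it was near background in TIA1 KO MEF) and Il1r1 (1.92) were higher in TIAR KO MEF, Egr1 (-3.24) and Ereg (-3.10) lower. The outlier spot of Ereg on TIA1 KO replicate 2 was dropped from that fit.

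The remaining lists are given beside the 2.35%, 5.7% and 2.3% of all probes called in the 3 comparisons. Of the 21 phospholipase genes of arachidonate release, limma called none in any comparison (4, 6 and 3 at an unadjusted p under 0.05 in TIA1 KO against WT, TIAR KO against WT and TIAR KO against TIA1 KO MEF). Pla2g4a, the cytosolic phospholipase that supplies the cyclooxygenases, gave 12.55 and 12.99 in WT, 13.67 and 13.74 in TIA1 KO and 12.80 and 13.10 in TIAR KO MEF. None of the 11 AU-rich element binders was called by the brightest probe (3, 7 and 4 unadjusted), a list that holds Tia1 and Tial1. At that unadjusted threshold, 14527, 10863 and 11935 of all 55681 probes passed in the 3 comparisons, in the same order. Among 10 prostanoid receptors only Tbxa2r, the thromboxane receptor, was called, higher in TIAR KO MEF by at least 3.67-fold against WT (1.88 ± 0.18 SE, adjusted p = 0.00318) and by at least 2.42-fold against TIA1 KO MEF. Of the 4 prostaglandin E receptors, Ptger2 and Ptger3 were not well above background on any array. Of 8 other terminal synthases, Cbr1, which reduces prostaglandin E, fell by 1.10 ± 0.18 in TIAR KO MEF (adjusted p = 0.0237), and Fam213b, a prostaglandin F synthase, was at least 4.14-fold lower in TIAR KO than in TIA1 KO MEF (adjusted p = 0.0433). Of 10 genes of the lipoxygenase branch, which competes for arachidonic acid, Aloxe3 fell in both knockouts, by at least 3.19-fold in TIA1 KO (-2.26 ± 0.26, adjusted p = 0.0491) and by 2.83-fold in TIAR KO MEF (-1.50 ± 0.21, adjusted p = 0.0131). Alox12 fell in TIAR KO MEF by at least 2.76-fold (adjusted p = 0.0108).

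**Figure D5:**
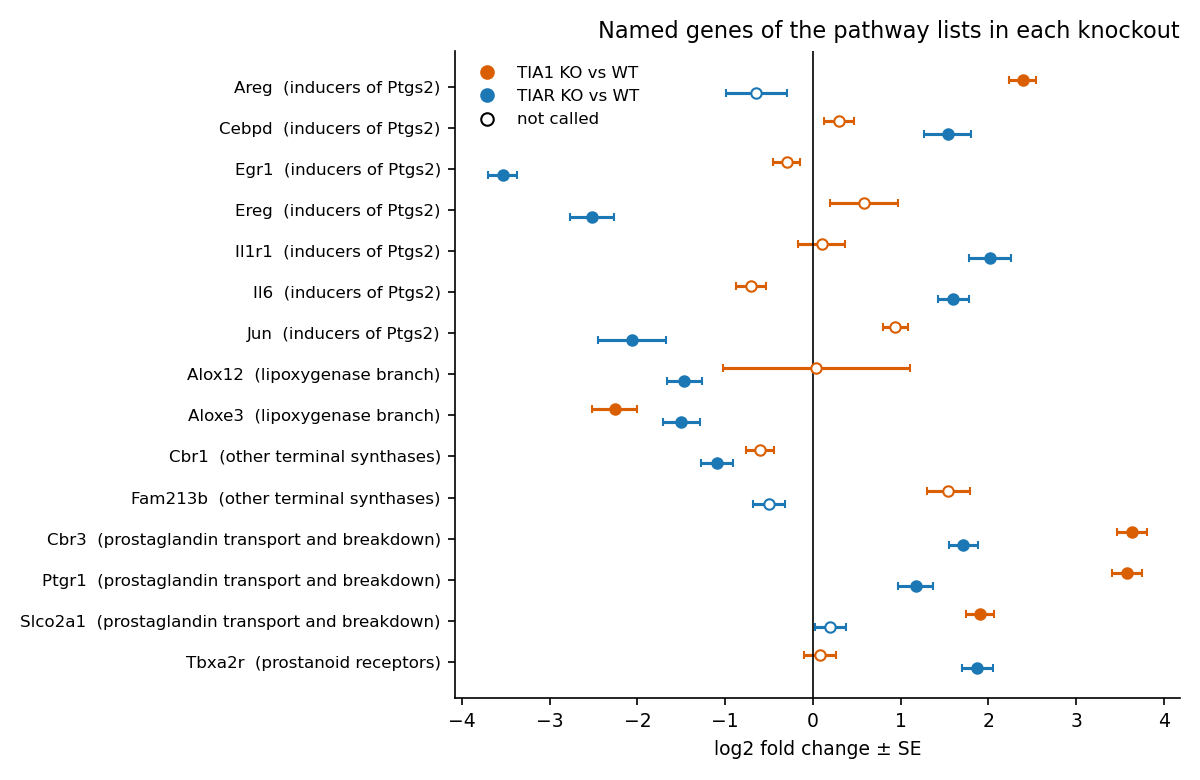
Log2 fold change ± SE (x axis) in TIA1 KO and TIAR KO against WT MEF of the 15 genes named from the pathway lists (y axis, with the list in brackets), with open circles where a gene was not called. Cbr3 (3.64 and 1.72) and Ptgr1 (3.58 and 1.17) lie to the right in both knockouts, and Egr1 (-3.54), Ereg (-2.52) and Jun (-2.07) to the left in TIAR KO MEF.

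Markers of the labelled cell type also differed between the groups. Of 10 fibroblast markers, 5 were called higher in TIA1 KO MEF (median change 2.27) and 8 in TIAR KO MEF (median change 2.93), where 1.56% and 3.34% of all probes were called higher. Between the knockouts, Dcn and Thy1 were called, both higher in TIAR KO MEF, beside 1.1% of all probes called higher there. Signals of different probes are not on a common scale, so the sums over a marker list and the brightest gene of a list describe probe signal, not the order of the RNA levels. The summed linear signal of the list was 346103 and 330969 in WT, 1154744 and 1141477 in TIAR KO and 1159121 and 1114487 in TIA1 KO MEF. The brightest probe was that of Vim in WT and of Col1a2 in both knockouts. Lum was near background on all 6 arrays, Pdgfra on both WT arrays, Dcn on WT replicate 1 and TIA1 KO replicate 1, and Thy1 on WT replicate 1 and both TIA1 KO arrays. Dcn, a proteoglycan of connective tissue, gave 7.07 and 7.27 in WT, 8.48 and 9.35 in TIA1 KO and 15.70 and 15.85 in TIAR KO MEF. The median change of the fibroblast list against WT was thus positive in both knockouts, but the list was not tested as a set. In TIA1 KO MEF, Thy1 (-0.215) and Lum (-0.11) lay lower than in WT and were not called. Ptgis rose in TIAR KO and fell in TIA1 KO MEF, and the part of the list's change in the changes of the prostaglandin genes was not tested.

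Of 8 macrophage markers, Aif1 was called lower than in WT in both knockouts and Cd14 in TIAR KO MEF, where 0.787% (TIA1 KO) and 2.36% (TIAR KO) of all probes were called lower. Between the knockouts, Cd14 and Itgam were lower and Cd68 higher in TIAR KO MEF, beside 2.3% of all probes called, and Emr1, Lyz2 and Ptprc were near background on every array. The summed signal of the list was 12825 and 12113 in WT, 23354 and 20416 in TIA1 KO and 11172 and 11103 in TIAR KO MEF, with the brightest probe being that of Cd14 in WT and of Itgam in both knockouts. Of 6 endothelial markers, limma called none by the brightest probe (1, 1 and 0 unadjusted), although a second Kdr probe was called higher in TIAR KO against WT MEF. Unadjusted, 14527 of all 55681 probes passed in TIA1 KO against WT MEF, 10863 in TIAR KO against WT MEF and 11935 between the knockouts. The Kdr probe was the brightest on every array, and Cdh5, Cldn5 and Tie1 were near background on all 6. The summed signal of the list was 3406 and 3687 in WT, 3694 and 3842 in TIA1 KO and 3989 and 4414 in TIAR KO MEF. Of 6 epithelial markers, 3 were called higher in TIAR KO than in WT MEF (Cdh1, Krt18 and Krt8), as were 3.34% of all probes. Cdh1 was also called higher than in TIA1 KO MEF, as were 1.1% of all probes. The Krt19 probe was the brightest on every array, and Epcam was near background on all arrays but TIA1 KO replicate 2. The summed signal of that list was 5927 and 6389 in WT, 11521 and 12217 in TIA1 KO and 9443 and 8680 in TIAR KO MEF. No alternative was run for the marker genes, and the part of these cells in the changes of the prostaglandin genes was not tested.

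The genes whose pattern over the 6 arrays was most like that of Ptgs2 were Gspt2, Ramp3, Nipal1, Plcg2 and Ass1. They were taken from 12293 genes by the smallest root mean square difference of mean-centred log2 values, which was 0.155, 0.174, 0.202, 0.214 and 0.250 in that order. Gspt2, a translation termination factor, gave 8.20 and 8.64 in WT, 10.54 and 10.90 in TIA1 KO and 6.80 and 6.72 in TIAR KO MEF. Ass1, the argininosuccinate synthase, gave 14.48 and 14.44, 16.53 and 16.66, and 12.41 and 12.06 in the same order. All 5 were high in TIA1 KO and low in TIAR KO MEF, as their choice requires.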

How the data were processed

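Total RNA (200 ng) of 6 samples was labelled with Cy3 and hybridized to 1-colour Agilent mouse arrays, read with Agilent Feature Extraction 10.7.3.1 (probe positions on mm9). The authors deposited the scanner software's spot intensities, not scaled across arrays, and log2 values per spot, which their methods describe as normexp background correction (offset 50), log2, loess and quantile scaling with limma, whose version is not given in the sources used here. Each log2 column correlated with the values rebuilt from its own array at 0.997 to 0.999 over all spots, had a median of 7.22 or 7.23 and was not centred per gene.

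The log2 values were matched to probes by spot number. Outlier spots were left out, no probe was left out for being dim, and each comparison was fitted with limma 3.58.1 (R 4.3.3, functions lmFit and eBayes), using only the 4 arrays of its groups and no covariate. The methods name 2 samples per group as independent, and p-values measure the spread between these. The brightest probe stood for a gene. Named genes were the 8 members, Tia1, Tial1 and Gapdh, of each pathway list up to 3 called genes with the largest rise and fall per comparison that were well above background on both higher arrays, and the 5 genes most like Ptgs2. Abcc4, Ptgr2, Pla2g4a, Il1rap, the cytokines, Ptger2, Ptger3 and the markers named were picked outside that rule, after their values were seen. The members, the lists and the tests were chosen with earlier results of these data known.

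Alternatives were values rebuilt from the scanner intensities, the processed signal scaled to its 75th percentile, a common array median, bright probes only, outlier spots kept, the brightest probe of each gene, all 3 groups in 1 fit, an intensity trend, treat (testing a fold above 2), a replicate block, and each array left out in turn. The alternative with 8 Ptgs2 spots was added after seeing the data. The fit was tested on simulated data, whose results are not given here and lend no weight to the calls. Promoters came from a RefSeq (GRCm38.p6). Other software was the R package data.table (1.17.8), Python 3.11.15, matplotlib 3.10.9, pandas 2.3.3 and numpy 2.4.6.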

Additional observations from a re-analysis of the deposited data

Results flagged for a closer look

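Of the 4 members called in the direct comparison of TIAR KO with TIA1 KO MEF, in which the WT arrays do not enter, Ptgis and Ptgs2 were also called against WT in both knockouts, in opposite directions. For Ptgis, the change against WT in TIAR KO minus that in TIA1 KO MEF was 7.30 on the log2 scale (limma, adjusted p = 0.0101), with all 4 arrays of the knockouts on opposite sides of the WT arrays. The TIA1 KO arrays were near background, so the difference stands for at least 131-fold. For Ptgs2 the same difference was -4.33 (limma, adjusted p = 0.0122), again with the knockouts on opposite sides of WT on every array. The part of genotype in either difference cannot be told apart from that of the strain or the cell line. No group held enough arrays for a search for single outlying arrays.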

How the results depend on the processing

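Each group held only 2 arrays, and a fit without an array leaves a group with a lone array, whose spread is taken from the other group. The same replicate numbers did not pair the arrays (correlations of same-numbered deviations of 0.033, 0.074 and -0.057). Where the cause of a difference is not named, the cause was not tested. The first number of each set below is for TIA1 KO against WT MEF, unless a comparison is named. With the replicate block, 0 probes (11378 at an unadjusted p under 0.05, limma), 0 members and 0 pathway genes were called, and Ptgs2 stayed at 2.49 (adjusted p = 0.129); between the knockouts it gave 0 probes (9655 unadjusted), 0 members, 0 pathway genes and Ptgs2 at -4.33 (adjusted p = 0.118). In TIAR KO against WT MEF the block called 2352 probes and kept Ptgs2, and the Ptgs1 call was lost (adjusted p = 0.0553). With treat, 368 probes, 0 members and 2 pathway genes were called, with an adjusted p of 0.156 for Ptgs2 at 2.49; in TIAR KO against WT MEF 947, 1 and 2, with 0.126 for Ptgs2 at -1.85; between the knockouts 408, 2 and 1. The processed signal gave 0 probes (27765 unadjusted), 0 members, 0 pathway genes and 2.42 for Ptgs2 (adjusted p = 0.0697), and 4 pathway genes between the knockouts. A common median gave 15801 probes, 6 members (all lower), 32 pathway genes and 1.03 for Ptgs2 (adjusted p = 0.0973), and 8307 probes and 23 pathway genes between the knockouts. Rebuilt values gave 1969 probes. Bright probes only gave 2271 probes and 8 pathway genes, and 2338 probes between the knockouts. All 3 groups in 1 fit gave 3600 probes and 8 pathway genes, 2036 probes in TIAR KO against WT MEF and 3309 between the knockouts. Of the calls in TIA1 KO against WT MEF, 47.6% were higher with bright probes only, 48.3% with all groups in 1 fit and 82.9% with treat; between the knockouts, 60.4% with bright probes only.

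Without 1 array in turn, the called probes ranged from 0 to 11225 in TIA1 KO against WT, from 0 to 920 in TIAR KO against WT and from 0 to 11396 between the knockouts, the members from 0 to 3, 0 to 3 and 0 to 4, and the pathway genes from 0 to 22, 0 to 4 and 0 to 23. Ptgs2 then ranged from 2.28 to 2.69, from -2.05 to -1.64 and from -4.51 to -4.15.

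No value that was called turned its sign. The reversed values were of probes that were not called. In TIA1 KO against WT MEF, a Hpgd probe was 3.04 with the processed signal and a Ptges3 probe -0.72 with a common median. In TIAR KO against WT MEF, the processed signal gave -0.018 for Ptges2 and -0.21 for the brightest Ptges3 probe, a common median -0.28 for Ptges2, -0.42 and -0.39 for Ptges3 probes and 0.080 for Hpgd, and the rebuilt values 0.013 for Hpgd. Between the knockouts, the processed signal gave 0.22 for the brighter Ptges probe and -3.08 for Hpgd, and a common median 1.06 for that Ptges probe, 0.33, 1.13 and 0.88 for Ptges3 probes and 0.0997 for Hpgd. Without 1 array in turn, TIA1 KO against WT MEF ranged from -0.125 to 0.105 for the brighter Ptges probe, -0.24 to 0.20 for a Ptges3 probe and -0.155 to 0.045 for Hpgd. TIAR KO against WT MEF ranged from -0.205 to 0.085 for that Ptges probe, -0.725 to 0.785, -0.28 to 0.16 and -0.795 to 0.085 for Ptges3 probes, and -0.155 to 0.115 and -0.025 to 0.165 for Hpgd. TIAR KO against TIA1 KO MEF ranged from -0.195 to 0.095 for Ptges, -0.20 to 0.12 and -0.705 to 0.175 for Ptges3 probes and -0.10 to 0.17 for Hpgd.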

Other observations

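The 10 Ptgs2 spots of an array were not alike. The pair of spots in the lowest rows of the array (rows 36 and 39 of 384) were the 2 lowest on all 6 arrays, between 0.71 and 1.67 and between 0.69 and 1.30 below the probe's own median (log2). Of the 5 spots that the scanner software marked as outliers, all belonged to this pair. Over 166 other probes with 10 spots and a mean log2 value above 9 on every array, the spots in the lowest and second lowest row also lay below the probe's median, by medians of 0.21 to 0.61 and 0.11 to 0.47. Leaving this pair out on every array gave Ptgs2 changes of 2.44 (adjusted p = 0.0217) in TIA1 KO against WT, -1.81 (adjusted p = 0.00251) in TIAR KO against WT and -4.25 (adjusted p = 0.0113) in TIAR KO against TIA1 KO MEF. The only Ptgs1 spot lies in row 10. Its row is the same on every array, and the dependence of its values on the row was not tested.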
